A study of Rattus norvegicus with 8 samples.

Results

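Complement and coagulation factors are the proteins of 2 plasma protease systems, and 40 genes of them were followed here in rat liver. Members were all probe sets, other than manufacturer's controls, whose platform annotation gives exactly 1 gene symbol from that list. The rule itself uses no measured value, but the list was drawn up with earlier results of these data known. The rule found 37 probe sets of 32 genes, out of 31042 probe sets and 14217 genes with a set of 1 symbol on the array. Of the complement genes 18 of 22 had such a set and of the coagulation genes 14 of 18. C2, C4a, C4b, Cfb, F7, F11, F13b and Kng1 had none and are not analysed here, and 6 probe sets that name a member beside another gene were left out. All 37 sets passed the filter on dim signal, a mean over the arrays, taken on the log scale, of at least 34.4 units. The samples were livers of male Goto-Kakizaki (GK) rats, an inbred strain with type 2 diabetes and no obesity, aged 18 weeks. For 12 weeks 4 of the rats had eaten the commercial diet AIN-93G alone (control diet) and 4 that diet with an extract of persimmon peel mixed in, and each liver had 1 array. Every animal was of the GK strain, so no diet was compared in a non-diabetic rat, and the dose of the extract is not given in the sources used here. The arrays are of separate animals, so the tests measure the spread between rats together with that of the array work.

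The liver makes most of the complement and clotting proteins of plasma, largely in hepatocytes. Complement is started by the classical pathway through C1, by the lectin pathway through mannose-binding lectins and their proteases, and by the alternative pathway. These routes meet at C3 and C5 and end in the membrane attack complex. Coagulation runs through vitamin K dependent and contact phase proteases to thrombin, and is held back by antithrombin and the protein C system, while plasmin dissolves the fibrin. Many of these genes belong to the acute phase response, which interleukin-6 drives through the transcription factors STAT3 and C/EBP.

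In the brightest probe set of each gene, 0 of 32 members were called lower and 0 called higher on the persimmon peel diet by limma at an adjusted p under 0.05. Among the brightest sets of all 9174 tested genes 1.93% were called lower and 0.469% higher, and among all 15521 tested sets 4.53% and 0.425%. At an unadjusted p under 0.05 the members numbered 6 lower (C1s, C3, C4bpa, Serping1, Pros1, Serpind1) and 1 higher (Proc), against 9.48% and 6.80% of all tested genes. The log2 fold changes, persimmon peel minus control diet, ran from -0.28 for Pros1 to 0.22 for the brightest set of Masp1, with SEs between 0.052 and 0.15. The 95% interval of each of the 32 lay within 1.5-fold in either direction, as it did for 7323 of the 9174 genes. The median was -0.089 over the 18 complement genes and -0.021 over the 14 coagulation genes, beside 0.014 over all tested genes. These medians depended on the scaling, and under quantile normalization they were -0.0063, 0.060 and 0.046. Under the same scaling C3 was at -0.0038, Serping1 at -0.037, C1s at -0.082, C4bpa at -0.12 and Serpind1 at -0.12, each over 1.5 times closer to 0 than without it, and Pros1 was at -0.22. In 5 members, or 15.6%, every persimmon peel array lay below every control array, namely C3, C4bpa, Serping1, Pros1 and Serpind1, and this held for 7.21% of all tested genes. In 0 members every persimmon peel array lay above every control array, against 3.24% of all tested genes. Members are bright, however, and 1218 tested genes had a mean signal of at least 1000 units, a limit chosen after seeing the data. Of these, 14.6% had every persimmon peel array below every control array, and 11 genes had the reverse. The 95% interval lay within 1.5-fold in 1177 of them. Their median log2 fold change was -0.056, beside -0.072 over the 30 members of that brightness. In the same bright genes 4.11% were called lower. A negative log2 fold change was seen in 64.5% of them, 20 of the 30 members that reached 1000 units and 47.4% of all tested genes. At an unadjusted p under 0.05 in limma, 232 of the 1218 bright genes were lower and 32 higher, beside 6 and 1 of those 30 members.

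**Figure D1:**
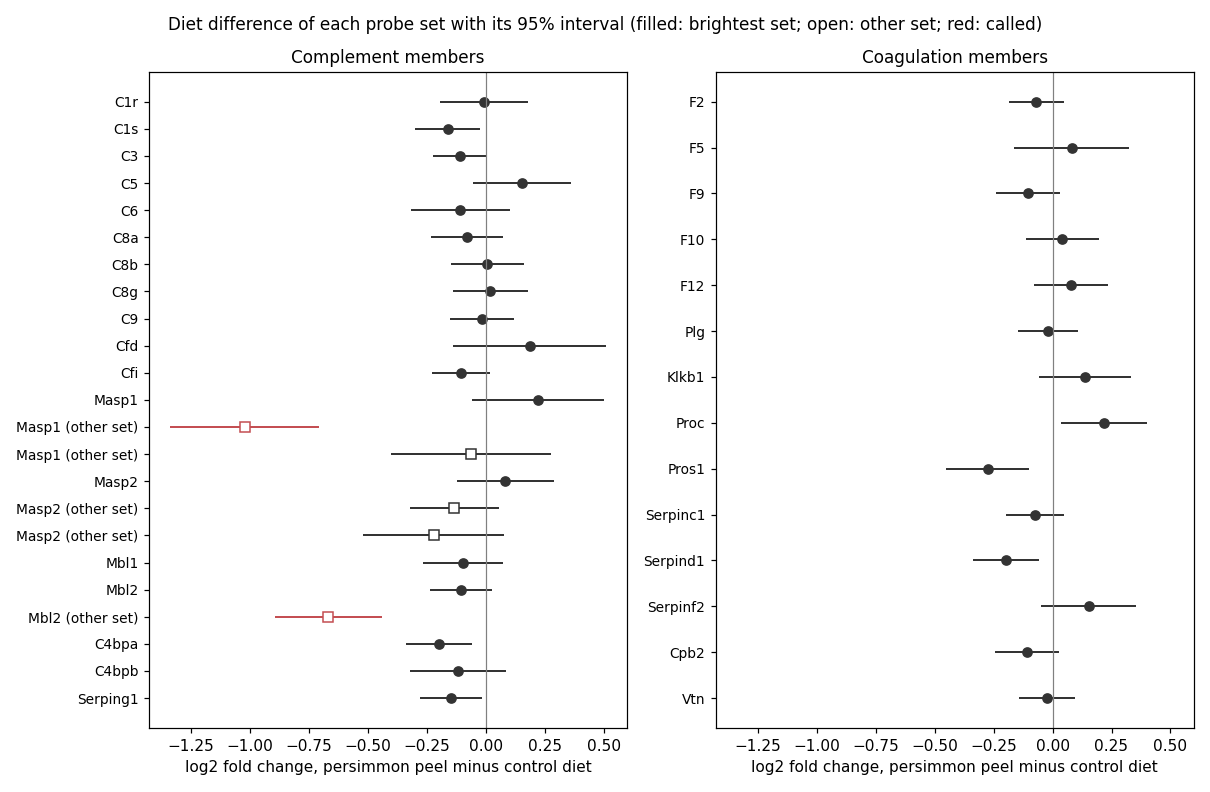
The log2 fold change of each probe set, persimmon peel minus control diet, is plotted with its 95% interval, for complement members on the left and coagulation members on the right; filled circles are the brightest set of a gene and open squares its other sets. The 2 called sets, drawn in red, are dimmer sets of Masp1 (-1.02) and Mbl2 (-0.67), and the filled circles lie between -0.28 and 0.22.

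The spread between livers, pooled over both diets, was small in the members, and most members varied more on the persimmon peel diet. The residual SD of the median member lay at the 5.04th percentile of all tested sets. Bright genes vary less in general: the median gene with a mean signal of at least 1000 units lay at the 16.6th percentile. The median member of that brightness lay at the 4.25th and the median hepatocyte marker at the 0.722th. In 29 of the 32 members the SD of the log2 values was larger among the persimmon peel arrays, as in 62.8% of all tested genes. Persimmon peel array 3 was the highest of its 4 in 29 of the 32 members and in 63.7% of all tested genes. The mean centred log2 value of the complement genes, each gene set to 0 over the 8 arrays, was 0.14 on persimmon peel array 3 and -0.084, -0.082 and -0.037 on persimmon peel arrays 1, 2 and 4. Control arrays lay between -0.030 and 0.086. For the coagulation genes the values were 0.13 on persimmon peel array 3, between -0.10 and -0.0028 on the other persimmon peel arrays, and between -0.023 and 0.065 on the control arrays. With 1 array left out the median log2 fold change of the complement genes ran from -0.11 (without persimmon peel array 3) to -0.043 (without persimmon peel array 1). That of the coagulation genes ran from -0.050 (without persimmon peel array 3) to 0.0063 (without persimmon peel array 2). Several positive values were smaller without persimmon peel array 3, namely Proc at 0.14, Masp1 at 0.12, Klkb1 at 0.076, Serpinf2 at 0.060, C5 at 0.058, F12 at 0.026, Cfd at 0.021 and Masp2 at 0.010.

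Hepatocyte markers, a control ratio for RNA quality and macrophage markers differed between arrays as well. All 13 tested hepatocyte markers had a negative log2 fold change (median -0.086), 0 were called by limma and 2 had an unadjusted p under 0.05, and the dimmest had a mean signal of 7914 units. Their summed signal ranged from 130434 to 139002 units in control livers and from 121373 to 130182 in persimmon peel livers, with a narrow gap between the groups. In bulk liver, fewer cells of a type and less RNA per cell cannot be told apart. The highest signal of an array ranged from 15052.5 to 16070.8 units on the control and from 13969.6 to 15143.3 on the persimmon peel diet. The part of such a difference in the scale of bright signals in the marker values was not tested. Of 8 tested Kupffer cell and macrophage markers 0 were called by limma, 0 had an unadjusted p under 0.05 and 6 had a positive log2 fold change. Their summed signal was 4938 to 6295 on the control and 5352 to 7676 on the persimmon peel diet, highest on persimmon peel array 3. As a sign of RNA quality, the middle control set of beta-actin was set against its 3' set as a log2 ratio, which averaged -0.76 (SD 0.015) over the control livers and -1.06 (SD 0.11) over the persimmon peel livers. The groups did not overlap, and an exact permutation test gave a two-sided p of 0.0286, which no split of 4 against 4 can go below, or 0.0571 adjusted over 4 such ratios. The 5' to 3' ratio of beta-actin averaged -1.68 (SD 0.12) and -1.97 (SD 0.22), with the same p-values. The GAPDH control sets separated the diets less, with a middle to 3' ratio of -0.58 (SD 0.034) and -0.59 (SD 0.047; exact permutation p = 0.857) and a 5' to 3' ratio of -0.29 (SD 0.10) and -0.43 (SD 0.078; exact permutation p = 0.0857, adjusted 0.114). The part of these differences in the member values was not tested, apart from a fit with the ratio as covariate, which called 0 of all probe sets.

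**Figure D2:**
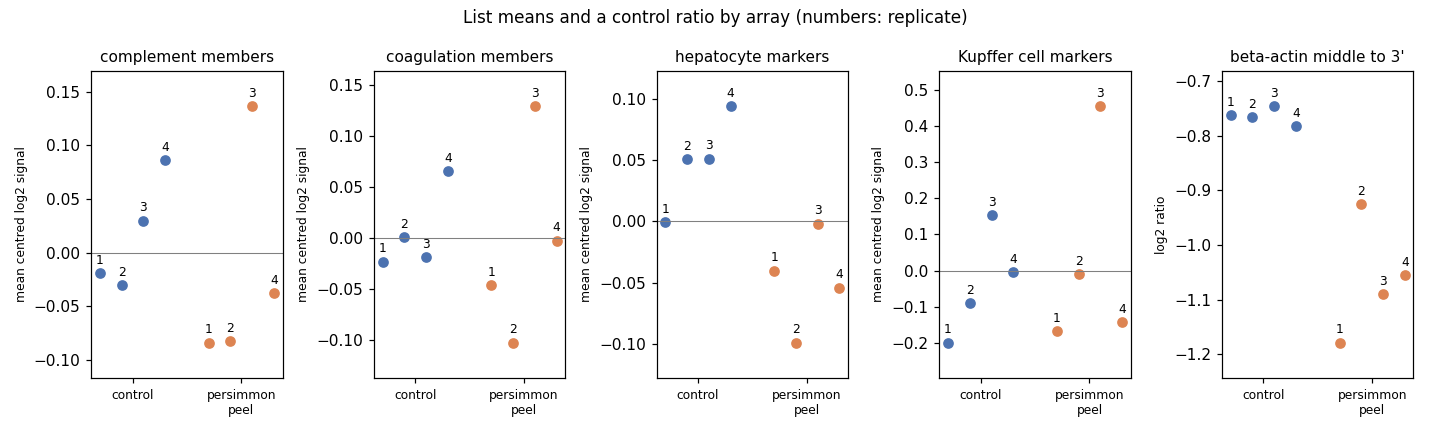
Each point is 1 array, numbered by replicate, with the mean centred log2 signal of 4 gene lists and the log2 ratio of 2 beta-actin control sets on the vertical axes. Persimmon peel array 3 is the highest point for complement (0.14), coagulation (0.13) and Kupffer cell markers (0.45), while the beta-actin ratio separates the diets. The hepatocyte markers do so by a narrow gap, between -0.00059 (control array 1) and -0.0018 (persimmon peel array 3).

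C3, the protein on which all complement routes converge, had signals of 12340, 12372, 12625 and 13107 on control arrays 1 to 4 and 11630, 11149, 12074 and 11842 on persimmon peel arrays 1 to 4. The highest persimmon peel array was below the lowest control array, and the mean went from 12611 ± 354 to 11674 ± 394 (SD, 4 arrays each), a difference of -0.11 on the log2 scale (SE 0.052, adjusted p = 0.248). It was -0.0038 under quantile normalization (adjusted p = 0.953). C5, which starts the terminal pathway when cleaved, had signals of 1935, 1988, 2246 and 2081 on the control and 2277, 2039, 2778 and 2124 on the persimmon peel diet. These groups overlapped, and persimmon peel array 3 was the highest of the 8 (log2 fold change 0.15, SE 0.095, adjusted p = 0.403; 0.058 without that array and 0.015 without persimmon peel arrays 1 and 3).

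The regions before 4 of these genes are shown because they hold, or for Mbl2 lack, short motifs of the factors that drive liver and acute phase genes, beside brightest sets that were not called. Sequences are the 250 bases before the RefSeq start in build GRCr8, 5' to 3' along the gene, and capitals mark motif matches on either strand. The C3 region is chr9:2201340-2201589 (minus strand), that of F9, clotting factor IX, chrX:143388392-143388641 (plus strand), that of Serpinc1, antithrombin, chr13:75790308-75790557 (plus strand) and that of Mbl2, a mannose-binding lectin, chr1:237430793-237431042 (plus strand).
C3: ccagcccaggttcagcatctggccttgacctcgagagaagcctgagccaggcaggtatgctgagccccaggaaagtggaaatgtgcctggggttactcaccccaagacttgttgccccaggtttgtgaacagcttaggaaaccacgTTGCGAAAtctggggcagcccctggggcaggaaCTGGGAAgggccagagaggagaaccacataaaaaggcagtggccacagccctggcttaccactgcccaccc
F9: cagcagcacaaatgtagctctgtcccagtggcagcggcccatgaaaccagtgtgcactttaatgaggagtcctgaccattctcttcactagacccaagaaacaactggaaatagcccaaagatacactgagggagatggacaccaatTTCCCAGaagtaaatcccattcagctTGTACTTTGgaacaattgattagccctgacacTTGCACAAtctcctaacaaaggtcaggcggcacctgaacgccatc
Serpinc1: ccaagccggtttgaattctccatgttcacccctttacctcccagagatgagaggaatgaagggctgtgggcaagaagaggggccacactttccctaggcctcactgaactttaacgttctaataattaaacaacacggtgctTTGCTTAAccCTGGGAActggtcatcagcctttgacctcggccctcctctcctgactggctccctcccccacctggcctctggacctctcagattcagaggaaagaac
Mbl2: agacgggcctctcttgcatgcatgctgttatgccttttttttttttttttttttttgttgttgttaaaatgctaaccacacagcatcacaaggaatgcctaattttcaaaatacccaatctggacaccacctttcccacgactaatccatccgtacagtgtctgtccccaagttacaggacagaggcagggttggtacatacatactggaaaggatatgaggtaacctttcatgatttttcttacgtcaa
The motifs searched were TTGCNNAA for C/EBP, CTGGGAA for the interleukin-6 response element bound by STAT3, TGNACTTTG for HNF4, TATAAA for the TATA box and an HNF1 motif of 10 bases, on both strands, and a base may be counted in more than 1 match. C3 and Serpinc1 each had 1 C/EBP match and 1 interleukin-6 element, F9 had both and the HNF4 match, and Mbl2 had no match to these letters in this window. The promoter table used here, taken from RefSeq, matched 31 of the 40 listed genes. The C/EBP motif was in 10 of the 31 and in 9.22% of all 33469 promoters of this length. The interleukin-6 element was also in 10 of the 31, against 9.56% of all, and C4a, C4b and Kng1 among these had no probe set here. Of the 25 promoters of measured members, 9 had the C/EBP motif and 7 the interleukin-6 element. HNF1 matched 3 (C5, F13b and Plg), against 0.323%, HNF4 matched 1 (F9), against 1.06%, and the TATA box matched 0, against 12.9%. A match of letters describes the sequence and does not show that a factor binds there.

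The classical pathway proteases C1r and C1s, which are activated in turn within the C1 complex, were both measured by 1 set. C1s had signals of 5840, 5667, 5949 and 6212 on the control and 5103, 5232, 5739 and 5077 on the persimmon peel diet. On the persimmon peel diet 3 arrays were below all controls and array 3 was within their range (log2 fold change -0.16, SE 0.063, adjusted p = 0.16). C1r was at 3988 ± 262 and 3982 ± 502 (SD, n = 4 each), a log2 fold change of -0.0079 with a 95% interval from -0.19 to 0.18.

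The lectin pathway held the only called sets of any member, 1 of 3 sets of Masp1 and 1 of 2 sets of Mbl2, both lower and both dimmer than another set of the same gene. Over all genes, 13.8% of the 2981 tested sets other than the brightest were called lower and 0.302% higher, so 2 of 5 such member sets have to be read against a high background. All 5 belonged to Masp1, Masp2 and Mbl2, so no member outside the lectin pathway had a set of this kind that could be called. Masp1 encodes a protease that associates with mannose-binding lectin and, by alternative splicing, further proteins. Its set 1371116_at had signals of 176, 132, 173 and 178 on the control and 87.9, 95.4, 71.0 and 70.3 on the persimmon peel diet. Every persimmon peel array was below every control array, a fall by 1.02 on the log2 scale (SE 0.15, adjusted p = 0.00224). The brightest set, 1390585_at, had 362, 430, 489 and 499 on the control and 468, 455, 640 and 514 on the persimmon peel diet, with a positive difference and overlapping groups (log2 fold change 0.22, SE 0.13, adjusted p = 0.371). The third set, 1389543_at, gave 56.2 ± 3.53 and 54.0 ± 6.42 (SD, 4 arrays each), a difference of -0.064 on the log2 scale (SE 0.16, adjusted p = 0.863).

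Mbl2 encodes a lectin that binds sugars on microbial surfaces and starts the lectin pathway. Its dimmer set, 1387528_at, had signals of 1484, 1356, 1334 and 1608 on the control and 818, 1103, 878 and 855 on the persimmon peel diet. The groups did not overlap, and the set fell by 0.67 on the log2 scale (SE 0.10, adjusted p = 0.00355). The brightest set, 1379240_at, had 6925, 6812, 6489 and 6685 on the control and 5818, 6220, 6534 and 6416 on the persimmon peel diet, where 3 arrays were below all controls and array 3 was above the lowest (log2 fold change -0.11, SE 0.060, adjusted p = 0.339; -0.0089 under quantile normalization). Mbl1, the other mannose-binding lectin of rodents, went from 1686 ± 68.4 to 1577 ± 108 (SD, 4 arrays each), a difference of -0.098 on the log2 scale (SE 0.077, adjusted p = 0.516). Masp2 encodes the protease that cleaves C4 and C2, and its brightest set had 1614, 1663, 1643 and 1838 on the control and 1720, 1524, 2068 and 1872 on the persimmon peel diet. Those groups overlapped, and the 3 sets of Masp2 had log2 fold changes of 0.081, -0.13 and -0.22 from the brightest to the dimmest (adjusted p = 0.678, 0.412 and 0.401).

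Sets of 1 gene were also compared within the same liver, and the called sets of Masp1 and Mbl2 moved apart from their brightest sets. These differences use the same array values as the calls above and are not independent of them. The log2 difference of the called Masp1 set from the brightest set averaged -1.43 (SD 0.28) over control livers and -2.68 (SD 0.42) over persimmon peel livers, a change of -1.24 (SE 0.22, adjusted p = 0.0139 in a limma fit over all 2981 such differences). For Mbl2 it averaged -2.22 (SD 0.12) and -2.78 (SD 0.19), a change of -0.56 (SE 0.15, adjusted p = 0.0332). Over all genes, 12.4% of these differences were called lower and 1.54% higher. The other set of Masp1 (-0.28, adjusted p = 0.401) and both other sets of Masp2 (-0.22, adjusted p = 0.239, and -0.30, adjusted p = 0.212) were not called in this fit. Where each probe set lies on its transcript was not analysed here. The diets also differed in the beta-actin ratio given above. With that ratio as a covariate, a fit that separates ratio and diet poorly, the log2 fold changes were -0.83 for the Masp1 set and -0.21 for the Mbl2 set (adjusted p = 1 in both). When persimmon peel arrays 1 and 3 were both left out they were -0.998 (adjusted p = 0.0417) and -0.57 (adjusted p = 0.0579). The Mbl2 difference from its brightest set passed in 2 of 8 fits that left out 1 array, with changes between -0.66 and -0.50, and not without control arrays 1, 3 or 4 or persimmon peel arrays 1, 3 or 4 (adjusted p between 0.0687 and 0.101). Without persimmon peel arrays 1 and 3 together neither difference passed (adjusted p = 0.105 for Masp1 and 0.208 for Mbl2).

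**Figure D3:**
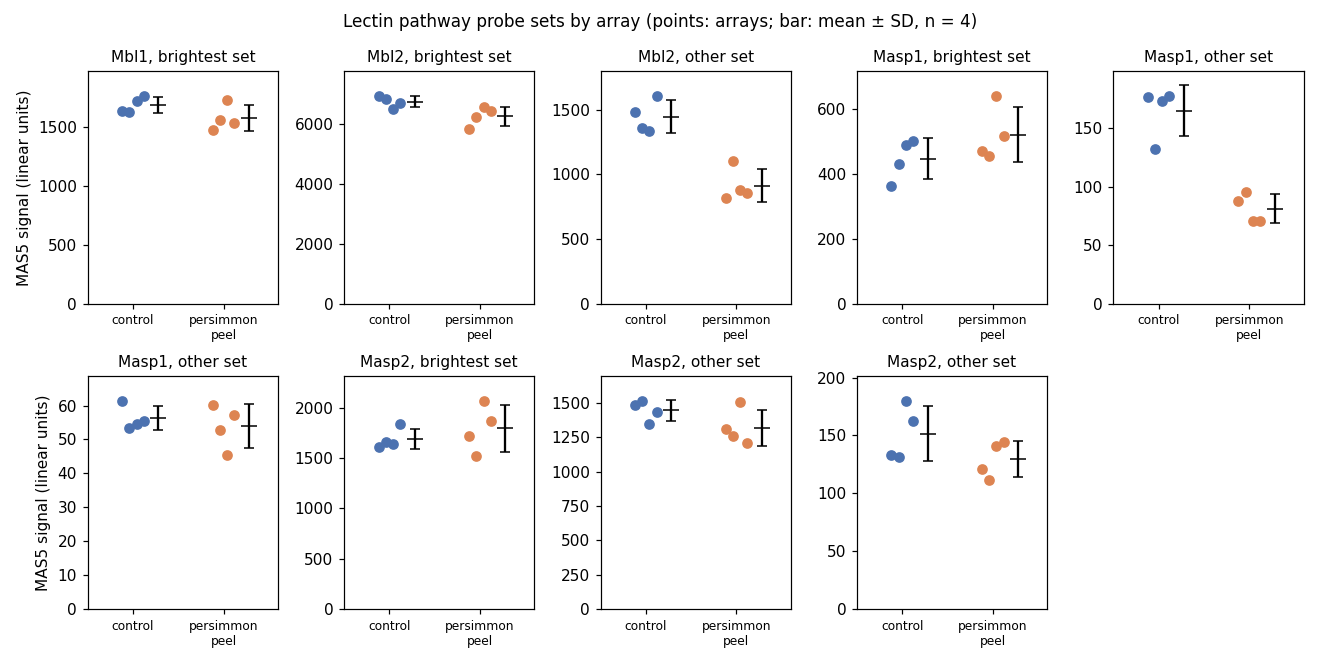
The MAS5 signal of each lectin pathway probe set is plotted per array on a linear axis from 0, with control arrays in blue, persimmon peel arrays in orange and bars for the mean ± SD (n = 4). The diets lie apart in 1 set of Mbl2 (1445 against 913) and in 1 set of Masp1 (165 against 81.2), and overlap in the brightest sets of both genes.

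Cfd, the alternative pathway protease factor D, known mainly from fat tissue, had signals of 215, 249, 235 and 275 on the control and 265, 235, 388 and 240 on the persimmon peel diet. Its groups overlapped and persimmon peel array 3 stood highest (log2 fold change 0.18, SE 0.15, adjusted p = 0.53; 0.021 without that array). The 5 genes of the terminal pathway, whose products form the membrane attack complex, had log2 fold changes between -0.11 and 0.019. C9, which forms most of the pore, was at 8452, 8382, 8989 and 8931 on the control and 8238, 8125, 9412 and 8641 on the persimmon peel diet. Those ranges overlapped, with persimmon peel array 3 the highest of the 8 (log2 fold change -0.016, SE 0.061, adjusted p = 0.919). C6 was at -0.11 (SE 0.096), C8a at -0.079 (SE 0.069), C8b at 0.0054 (SE 0.071) and C8g at 0.019 (SE 0.073). The adjusted p-values of these 4 genes were 0.563, 0.562, 0.978 and 0.92.

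The 4 complement inhibitors all had a negative log2 fold change and 0 were called by limma, with 2 at an unadjusted p under 0.05. All 4 had a mean signal of at least 1000 units. Of the 1218 tested genes of that brightness, 785 had a negative log2 fold change. At an unadjusted p under 0.05 in limma, 232 of the 1218 were lower and 32 higher. Whether the inhibitors differ from these bright genes was not tested. C4bpa encodes the alpha chain of the C4b-binding protein, a cofactor for breakdown of C4b. Its signals were 5617, 5287, 5959 and 5852 on the control and 4792, 5157, 5058 and 4765 on the persimmon peel diet. The groups did not overlap (log2 fold change -0.20, SE 0.063, adjusted p = 0.0852). The beta chain gene C4bpb, whose product binds protein S, went from 3212 ± 365 to 2954 ± 304 (SD, 4 arrays each), a difference of -0.12 on the log2 scale (SE 0.094, adjusted p = 0.519). Serping1, the C1 inhibitor that also restrains the contact phase, had 6943, 6855, 7230 and 7159 on the control and 6001, 6189, 6805 and 6451 on the persimmon peel diet. Its highest persimmon peel array lay just under its lowest control array (log2 fold change -0.15, SE 0.060, adjusted p = 0.175; -0.037 under quantile normalization). Cfi, the protease that inactivates C3b and C4b, was at -0.11 (SE 0.055, adjusted p = 0.314).

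Among the anticoagulant genes the protein C pathway members differed in sign. Pros1, protein S, the cofactor of activated protein C, had signals of 2231, 2206, 2175 and 2594 on the control and 1778, 1824, 2015 and 1978 on the persimmon peel diet. All persimmon peel arrays were below all controls, and the mean went from 2301 ± 196 to 1899 ± 115 (SD, 4 arrays each), a difference of -0.28 on the log2 scale (SE 0.080, adjusted p = 0.0642). Pros1 passed under quantile normalization (-0.22, adjusted p = 0.0397), median centring (-0.30, adjusted p = 0.0414) and array weights (-0.28, adjusted p = 0.0423), and in 0 of the other 18 alternatives. Proc, protein C, which switches off factors V and VIII, had 3716, 3923, 3743 and 4034 on the control and 4478, 3887, 5273 and 4383 on the persimmon peel diet. On that diet 3 arrays were above all controls and array 2 was within their range (log2 fold change 0.22, SE 0.084, adjusted p = 0.159). Proc passed under quantile normalization (0.29, adjusted p = 0.0169) and without persimmon peel array 2 (0.29, adjusted p = 0.0351), and was at -0.11 with the beta-actin ratio as covariate. Whether the change of Proc differs from that of Pros1 was not tested.

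Serpind1, heparin cofactor II, a thrombin inhibitor, had signals of 4722, 4845, 4953 and 5125 on the control and 3996, 4408, 4434 and 4298 on the persimmon peel diet. The groups lay apart (log2 fold change -0.20, SE 0.063, adjusted p = 0.0874), and the gene passed with array weights (-0.21, adjusted p = 0.0499). Serpinc1, antithrombin, the main inhibitor of thrombin and factor Xa, had 9567, 9562, 9636 and 9785 on the control and 9142, 8525, 9680 and 9277 on the persimmon peel diet. Here persimmon peel array 3 lay within the control range (log2 fold change -0.075, SE 0.056, adjusted p = 0.486).

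**Figure D4:**
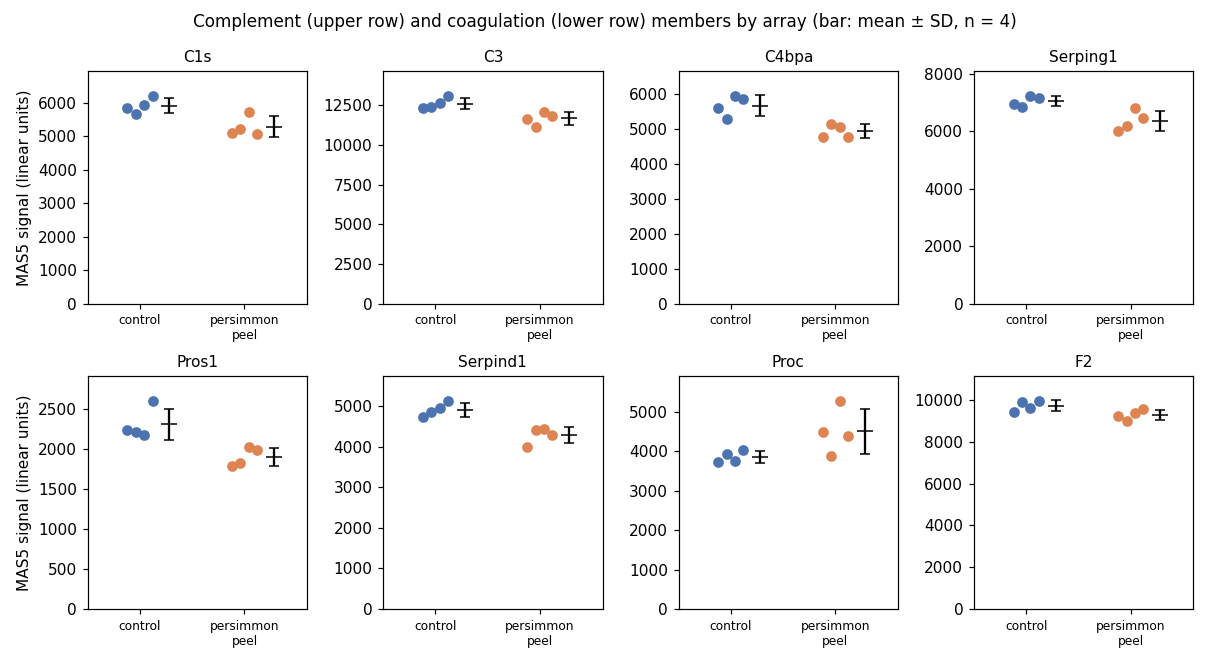
MAS5 signals per array are plotted on linear axes from 0 for 4 complement genes (upper row) and 4 coagulation genes (lower row), with bars for the mean ± SD (n = 4). Diets do not overlap for C3, C4bpa, Serping1, Pros1 and Serpind1, with mean differences as small as 12611 against 11674 for C3, and overlap for C1s, Proc and F2.

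The 6 clotting proteases and cofactors measured had log2 fold changes between -0.10 and 0.14, and 0 had an unadjusted p under 0.05 or a call by limma. F2, prothrombin, was at 9441, 9921, 9628 and 9958 on the control and 9216, 8977, 9377 and 9571 on the persimmon peel diet. The ranges overlapped at array 4 of the persimmon peel diet (log2 fold change -0.069, 95% interval from -0.18 to 0.044, adjusted p = 0.503). F9, lost in haemophilia B, had 5578, 5825, 5959 and 6030 on the control and 5391, 5167, 5839 and 5376 on the persimmon peel diet. On that diet 3 of its arrays lay below all controls (log2 fold change -0.10, SE 0.062, adjusted p = 0.371). Under quantile normalization F9 was at -0.036 and F2 at -0.0057. F10, the protease that makes thrombin, was at 0.041 (SE 0.070, adjusted p = 0.791) and its cofactor F5 at 0.082 (SE 0.11, adjusted p = 0.732). The contact phase genes F12 and Klkb1, which encode factor XII and plasma prekallikrein, were at 0.076 (SE 0.072, adjusted p = 0.592) and 0.14 (SE 0.090, adjusted p = 0.421). F12 had 4429, 4520, 4455 and 4490 on the control and 4879, 4184, 5235 and 4631 on the persimmon peel diet, a narrow control group inside a wide persimmon peel group. Klkb1 had 2249, 2111, 2202 and 2378 on the control and 2185, 2220, 2797 and 2686 on the persimmon peel diet, where arrays 3 and 4 stood above all controls.

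Of the 3 fibrinolysis genes, Plg, which encodes plasminogen, had signals of 9376, 9667, 9100 and 9489 on the control and 9223, 8609, 9947 and 9398 on the persimmon peel diet. The groups overlapped in full, and the 95% interval of the log2 fold change ran from -0.14 to 0.10 around -0.019 (adjusted p = 0.89). Serpinf2, the plasmin inhibitor alpha-2-antiplasmin, was at 0.15 (SE 0.092, adjusted p = 0.381), and had 3270, 3593, 3220 and 3547 on the control and 3842, 3486, 4580 and 3337 on the persimmon peel diet. Its groups overlapped, with persimmon peel array 3 the highest, and the value was 0.060 without that array and 0.0031 without persimmon peel arrays 1 and 3. Cpb2, a carboxypeptidase that protects fibrin from lysis, had 5123, 5240, 5050 and 5469 on the control and 4808, 4635, 5148 and 4798 on the persimmon peel diet, where only array 3 reached the control range. Its mean went from 5220 ± 183 to 4847 ± 216 (SD, 4 arrays each), a difference of -0.11 on the log2 scale (SE 0.061, adjusted p = 0.357), or -0.014 under quantile normalization. Vtn, vitronectin, which restrains both the membrane attack complex and, through the plasminogen activator inhibitor, fibrinolysis, was at -0.022 with a 95% interval from -0.14 to 0.093 (adjusted p = 0.859).

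Other genes of the same systems gave 1 call among their brightest sets, beside 1.93% called lower and 0.469% called higher over all tested genes. At an unadjusted p under 0.05 in limma, the shares over all tested genes were 9.48% lower and 6.80% higher. Of 29 further complement genes 12 were tested, and limma called 0, with 1 lower and 0 higher at an unadjusted p under 0.05 and a median log2 fold change of 0.11. C1qa, C1qb and C1qc, whose products form C1q and come mainly from macrophages, were at 0.21 (SE 0.15), 0.15 (SE 0.13) and 0.18 (SE 0.13), with adjusted p-values of 0.456, 0.544 and 0.493. For C1qa, persimmon peel array 3 stood at 2839, while the other 7 arrays lay between 1519 and 1869. The macrophage markers were highest on the same array, as given above, but in mean centred log2 values this was not particular to them. By that measure persimmon peel array 3 was also the highest of all for endothelial (0.29) and stellate cell markers (0.24). By summed signal it was below control array 4 for both, at 5263 against 5287 for endothelial and 1293 against 1474 for stellate cell markers. The array was not the highest by either measure for hepatocyte, cholangiocyte or blood cell markers. Of all tested genes, 63.7% were highest there among the persimmon peel arrays. Of 41 further genes of coagulation and fibrinolysis 25 were tested, with 1 called lower, 0 higher, 2 lower and 1 higher at an unadjusted p under 0.05, and a median of -0.014. The fibrinogen genes Fga, Fgb and Fgg were at -0.094, -0.13 and -0.10 in their brightest sets (adjusted p = 0.359, 0.31 and 0.274).

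The called gene was Lman1, which encodes the receptor that carries factors V and VIII out of the endoplasmic reticulum. Its signals were 281, 231, 271 and 289 on the control and 134, 221, 133 and 126 on the persimmon peel diet. The groups did not overlap, though persimmon peel array 2 was close to the lowest control. The log2 fold change was -0.84 (SE 0.16, adjusted p = 0.00906), with 1 tested set for the gene. It was -0.68 without persimmon peel arrays 1 and 3 (adjusted p = 0.135) and 0.016 with the beta-actin ratio as covariate (adjusted p = 1). Mcfd2, the partner of Lman1 in that transport, had 2725, 2795, 2611 and 2704 on the control and 2183, 2535, 2178 and 2391 on the persimmon peel diet, apart but not called (log2 fold change -0.23, SE 0.073, adjusted p = 0.0923). A middle set of Kng2l1, a rat gene of the kininogen family whose close relatives can share probes, had 2984, 2911, 3042 and 3381 on the control and 2081, 2554, 2252 and 2381 on the persimmon peel diet. That set was called lower without overlap (-0.41, SE 0.080, adjusted p = 0.00927), while its brightest set was at 0.052 (SE 0.065, adjusted p = 0.705), and the change between both sets was -0.46 (adjusted p = 0.0235). That call ended without the intensity trend (adjusted p = 0.0578) and without persimmon peel arrays 1 and 3 (-0.32, adjusted p = 0.108), and the value was -0.097 with the beta-actin ratio as covariate.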

How the data were processed

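Liver RNA was measured on 1-colour Affymetrix arrays. The deposited values are intensity values per probe set on a linear scale, made by the authors with MAS5 per the submitters' processing notes; the sources used here do not name its version, scaling target or detection calls. The 8 columns were matched to labels, with 0 left over. Values were taken to log2 without pseudocount or further normalization, 57 control sets and the dimmest 50% of sets were left out, and 15521 sets were fitted with limma (version 3.58.1, R 4.3.3; lmFit, eBayes with an intensity trend), two-sided, persimmon peel minus control diet, with Benjamini-Hochberg adjustment over all of them and a threshold of 0.05. Every adjusted p of a gene comes from such a limma fit, and each SE is its moderated one. Means and SDs are of linear signals. Names came from the platform annotation, updated through RefSeq (GRCr8). The brightest set by mean log2 value stands for a gene. Differences between sets of a gene were fitted alike. Arrays give no depth, and their number limits the precision; the labels name no batch.

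Named are all members. Values per array are given for members with a called set, the 4 smallest p-values per direction in complement and in coagulation, and C3, C5, C9, F2, Plg and Serpinc1, where Cfb and Kng1 had no set; of other pathway genes, those with a called set, while C1qa to C1qc, Mcfd2 and the fibrinogen genes were chosen after their values were seen. Members and lists were chosen with earlier results of these data known. Of the marker lists, endothelial genes had 1 of 8 called lower and stellate cell, cholangiocyte and blood cell genes 0 of 8, 1 and 4, with 2, 0, 0 and 0 lower at an unadjusted p under 0.05. Over all tested genes 1.93% were called lower and 9.48% were lower at an unadjusted p under 0.05 in limma. The called endothelial gene was Fcgr2b (log2 fold change -0.42, limma adjusted p = 0.009), in a list with 5 negative and 3 positive values. The fit was tested on simulated data. Alternatives tried were other scalings (median centring, quantile normalization), a pseudocount of 16, other filters (none, the upper 30% by signal), other variance models (array weights, robust, no trend), the replicate block, the mean of a gene's sets, only brightest sets, the beta-actin ratio as covariate, and leaving out arrays.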

Additional observations from a re-analysis of the deposited data

Results flagged for a closer look

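Each of the 37 member sets was examined in both diets, 74 groups of 4 arrays, for 1 array standing far from the other 3, which chance alone does in about 1 of 20 groups. In 2 groups this was the case. Control array 2 had a signal of 132 in the called set of Masp1, and the other control arrays lay between 173 and 178; without control array 2 the log2 fold change of that set was -1.13 (limma, adjusted p = 0.00344). Control array 4 had a signal of 2594 in Pros1, and the others lay between 2175 and 2231; without control array 4 the log2 fold change of Pros1 was -0.22 (limma, adjusted p = 0.194).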

How the results depend on the processing

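The counts of 0 called complement genes in either direction, and of 0 called coagulation genes, held in every alternative with these exceptions. Coagulation genes called lower numbered 1 (Pros1) under quantile normalization and under median centring and 2 (Pros1, Serpind1) with array weights, those called higher numbered 1 (Proc) under quantile normalization, and 1 complement gene (Mbl2, -0.39, adjusted p = 0.0194) was called lower with the mean of a gene's sets. When each array was left out in turn, coagulation genes called higher ranged from 0 to 1. The coagulation median was 0.060 under quantile normalization and -0.13 with the beta-actin ratio as covariate, and ran from -0.050 to 0.0063 with 1 array left out; the complement median, -0.089 in the values reported, was -0.0063 under quantile normalization and ran from -0.11 to -0.043 with 1 array left out. Quantile normalization changed the sign of C9 (0.072), Plg (0.061) and Serpinc1 (0.012), and the mean of a gene's sets that of Masp1 (-0.29) and Masp2 (-0.092). The covariate moved the median of all genes from 0.014 to -0.11 and changed the sign of C5 (-0.10), Cfd (-0.21), Masp2 (-0.21), Proc (-0.11), Serpinf2 (-0.11), F12 (-0.22) and Lman1 (0.016). Leaving out persimmon peel arrays 1 and 3 changed that of Cfd (-0.032) and F12 (-0.023). With 1 array left out, C9 ranged from -0.060 to 0.011 and Plg from -0.052 to 0.017. The cause of these changes was not tested.

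Over all probe sets, 769 were called, 467 with no filter, 334 with the mean of a gene's sets, 83 with only brightest sets (fewer sets tested), 0 with the covariate, 77 without persimmon peel arrays 1 and 3, and 308 to 1211 with 1 array left out, fewest without control array 4 and most without persimmon peel array 2. Lower sets were 91.4% of the calls and 68.7% under quantile normalization. Differences between sets of a gene called 417 sets, 0 without persimmon peel arrays 1 and 3, and 44 to 650 with 1 array left out. Other pathway genes called numbered 2 with the mean of a gene's sets, 0 with the covariate, 0 without persimmon peel arrays 1 and 3, and 1 to 2 with 1 array left out. Replicate numbers did not pair the animals: arrays of the same number correlated between -0.085 and 0.054 in their deviations, and 1 of 4 correlated best with its own number. With the replicate block the counts of called members stayed at 0, with a complement median of -0.089 and a coagulation median of -0.021, and the dimmer sets of Masp1 and Mbl2 still passed (adjusted p = 0.0027 and 0.00358). With 4 arrays per diet, the SEs of 0.052 to 0.15 limit which member changes can be called.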
